A study of Rattus norvegicus with 3 samples.

Results

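S100 proteins and annexins are 2 families of calcium-responsive adaptor proteins, many of which work at the inner face of cell membranes. Their RNA was compared in 3 rat cell types, with 1 whole rat genome array for each. The 10 genes described were S100a4, S100a6, S100a8, S100a9, S100a10, S100b, Anxa1, Anxa2, Anxa3 and Anxa5. They were chosen by name, as the family members set for this description, among 13301 genes with a probe named through its RefSeq accession, and they had 15 probes. MSCs were mesenchymal stem cells grown as an adherent, unsorted monolayer from femoral bone marrow of F344 rats, in medium with a higher serum content than that of the tumor lines. COS1NR is an osteosarcoma line and MFH1NR is a malignant fibrous histiocytoma line, and each is a single line from a tumor induced in F344 rats by 4-hydroxyaminoquinoline 1-oxide. Per the methods both lines carry a p53 mutation. There were no replicates, so no test was possible, and each ratio compares 2 arrays and not 2 conditions.

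S100 proteins are small EF-hand proteins that form dimers and expose a binding face when calcium rises. Annexins bind acidic membrane phospholipids in the presence of calcium, through a conserved core of annexin repeats. The families meet where an S100 dimer joins a pair of annexins, as S100A10 does with annexin A2. S100A8 and S100A9 form calprotectin of neutrophils and monocytes, S100A4 binds nonmuscle myosin IIA and marks motile fibroblasts and metastatic cells, and S100B is known from glia, chondrocytes and fat cells. In bone and connective tissue annexin A5 is a known component of matrix vesicles.

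The 3 arrays had the same 41012 probes. The 75th percentile of intensity over spots that were not controls came to 589 in MSCs, 774 in COS1NR and 994 in MFH1NR. Each intensity was taken relative to it before ratios were formed, while the values that a gene is said to have read are the intensities as deposited, in arbitrary units. Between 56.6% and 59.7% of these spots were well above background, which is the scanner software's own call. COS1NR and MFH1NR were on 1 slide and MSCs on another, and in the ratios to MSCs the cell type cannot be told apart from the slide. Both of these ratios also share the MSC array. All 15 macrophage markers listed were well above background in MSCs, against 8 in COS1NR and 7 in MFH1NR. Their summed scaled level came to 205 in MSCs, 13.1 in COS1NR and 5.24 in MFH1NR. Fewer cells of a type and less RNA per cell cannot be told apart in such bulk RNA, and the part of these markers in the ratios below was not tested. Of the MSC markers, Nt5e, Eng, Thy1 and Cd44 were all well above background in MSCs, with Thy1 at an intensity of 2781. Of 5 osteoblast markers with a probe, 4 were well above background in MSCs, 4 in COS1NR and 5 in MFH1NR. Sp7, a defining osteoblast factor, was not well above background in the osteosarcoma line COS1NR at 6.34, nor in MSCs at 7.26, and was so in MFH1NR at 108. Ibsp went the other way between the tumor lines, at 5269 in MSCs, 491 in COS1NR and 51.7 in MFH1NR. Alpl was 2.07-fold higher in MFH1NR than in COS1NR, and Bglap and Col1a1 were within 2-fold between these lines.

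Promoters were found for 8 of the 10 genes, and those of 4 are shown because their levels carry the differences described below or, for S100a6, because it is a close neighbor of S100a4 with another pattern. Each is the 250 bases before the RefSeq transcription start on build GRCr8, at chr2:178388279-178388528 (plus strand) for S100a4, chr2:178398287-178398536 (plus strand) for S100a6, chr8:78986002-78986251 (plus strand) for Anxa2 and chr14:13085598-13085847 (minus strand) for Anxa3. Capitals mark the motifs searched on both strands: the TATA box TATAAA, the CCAAT box, the GC box GGGCGG and the AP-1 type motif TGANTCA, where N is any base.
S100a4: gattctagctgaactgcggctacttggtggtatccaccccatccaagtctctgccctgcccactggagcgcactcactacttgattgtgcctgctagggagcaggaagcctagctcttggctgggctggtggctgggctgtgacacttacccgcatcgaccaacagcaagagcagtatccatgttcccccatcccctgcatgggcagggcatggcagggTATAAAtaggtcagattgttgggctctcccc
S100a6: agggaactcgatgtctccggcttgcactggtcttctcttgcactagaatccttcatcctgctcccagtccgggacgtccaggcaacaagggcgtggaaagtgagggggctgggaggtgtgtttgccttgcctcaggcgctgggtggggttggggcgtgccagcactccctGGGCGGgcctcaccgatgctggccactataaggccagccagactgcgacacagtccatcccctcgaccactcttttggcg
Anxa2: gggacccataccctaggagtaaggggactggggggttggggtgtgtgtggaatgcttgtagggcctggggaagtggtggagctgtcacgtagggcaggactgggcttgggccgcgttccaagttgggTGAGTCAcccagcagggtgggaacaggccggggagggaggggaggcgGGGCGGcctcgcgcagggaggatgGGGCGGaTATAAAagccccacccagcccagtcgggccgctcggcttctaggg
Anxa3: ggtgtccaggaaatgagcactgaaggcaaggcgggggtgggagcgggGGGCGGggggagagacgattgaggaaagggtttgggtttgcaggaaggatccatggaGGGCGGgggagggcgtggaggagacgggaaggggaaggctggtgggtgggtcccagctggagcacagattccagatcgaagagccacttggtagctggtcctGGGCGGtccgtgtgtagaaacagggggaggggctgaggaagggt
The S100a4 window held TATAAA, beginning 31 bases before the start, and none of the other motifs. The Anxa2 window held the TATA box once, the GC box at 2 places and the AP-1 type motif once. The GC box GGGCGG stood once in the S100a6 window and at 3 places in that of Anxa3, with no TATAAA in either. Of 33469 rat promoter windows of the same length, 12.9% held TATAAA, 30.5% held GGGCGG, 34.0% held CCAAT and 6.34% held TGANTCA. The ratio of observed to expected CpG was 0.193 for S100a4 and between 0.487 and 0.560 for the other 3, with a median of 0.383 over all windows. None of the motifs overlapped another in these 4 windows, and a match is a description of letters and not of a bound factor.

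Levels of the members separated into genes that were bright in every cell type and genes near background. S100a4, S100a6, S100a10, Anxa1, Anxa2, Anxa3 and Anxa5 were well above background on all 3 arrays. S100a8 was so in COS1NR alone, and S100a9 and S100b were not so on any array. A difference of at least 2-fold was called, and where a probe was well above background on only 1 array of a pair the ratio was a bound set by the dimmest spot well above background on the other. Where both were dim no ratio was given.

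**Figure D1:**
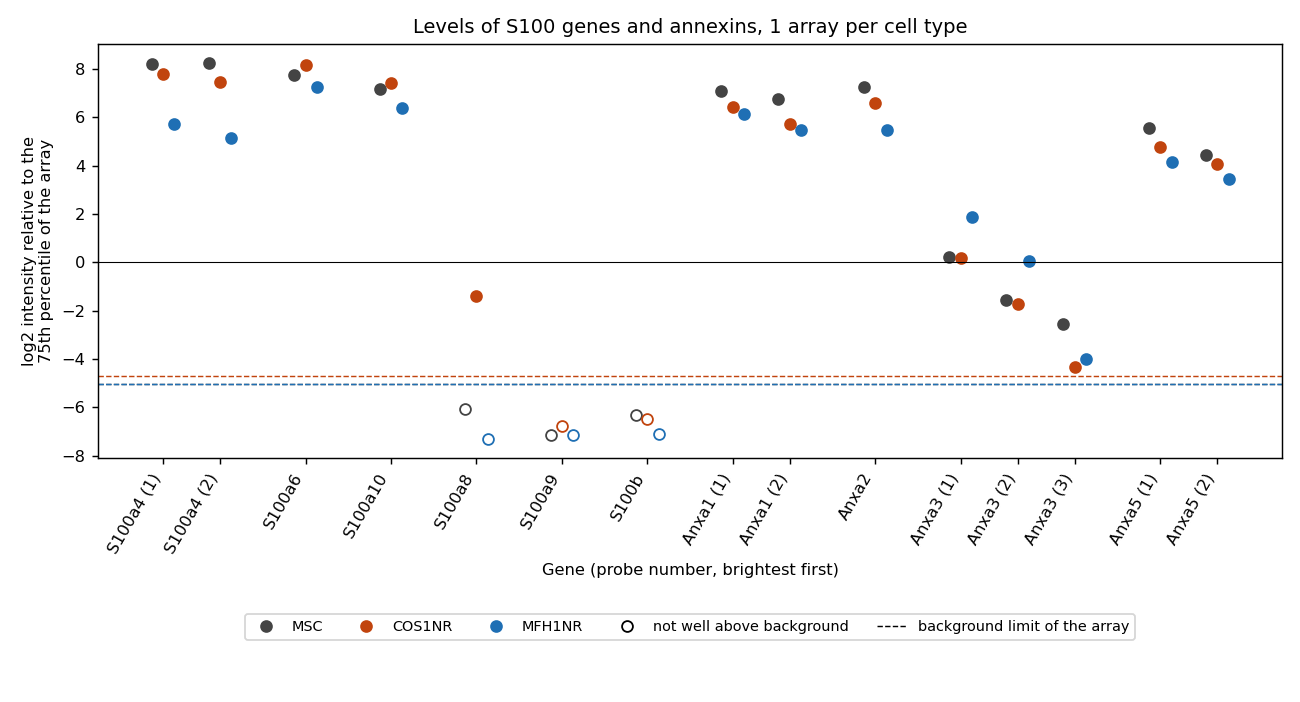
Log2 intensity relative to the 75th percentile of its own array (y axis) for the 15 probes of the 10 genes (x axis), 1 point per array, with open points for probes not well above background and dashed lines for the lowest scaled level well above background on each array. S100a4 and Anxa2 are lowest in MFH1NR, the first and second Anxa3 probes are highest there, and S100a8 is above the dashed lines in COS1NR alone. Points of different genes are different probes and their heights cannot be compared.

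S100a4 was lowest in MFH1NR. The gene, which encodes the myosin-binding S100 protein of motile cells, read 174007 in MSCs, 170180 in COS1NR and 52317 in MFH1NR. Relative to the percentile it was 5.61-fold lower in MFH1NR than in MSCs, with a log2 ratio of -2.49, and 4.18-fold lower than in COS1NR. Its second probe read 180725 in MSCs, 136145 in COS1NR and 35785 in MFH1NR, giving log2 ratios of -3.09 to MSCs and -2.29 to COS1NR. Both probes thus put MFH1NR lowest by more than 2-fold. COS1NR and MSCs were closer, with log2 ratios of COS1NR to MSCs of -0.43 on the first probe and -0.80 on the second.

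S100a6 encodes calcyclin, a partner of annexins and of the calcyclin-binding protein. It read 127558 in MSCs, 220530 in COS1NR and 153210 in MFH1NR. No pair of cell types differed by 2-fold. The log2 ratio to MSCs was 0.40 in COS1NR and -0.49 in MFH1NR, where the sign of the latter turned with no scaling (0.26), quantile normalization (0.16) and spike-in scaling (0.03). S100a10 encodes the light chain that does not respond to calcium and is bound to annexin A2. It read 85428 in MSCs, 133973 in COS1NR and 84368 in MFH1NR. COS1NR was highest for both genes, and MFH1NR was lowest relative to the percentile. S100a10 was 2.04-fold lower in MFH1NR than in COS1NR, just past the threshold, and under every other scaling between arrays, that is none, median, quantile and spike-in, the log2 ratio was between -0.97 and -0.24. Its log2 ratio of COS1NR to MSCs was 0.26, below the median by which probes of 1 gene differed in that comparison (0.28), and -0.02 with spike-in scaling.

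S100a8, a subunit of calprotectin, was the member with the widest ratio. It read 292 in COS1NR and was near background in MSCs (8.92) and MFH1NR (6.24). The level in COS1NR exceeded that in MSCs by at least 12.4-fold and that in MFH1NR by at least 12.5-fold. With normexp background correction on the median spot intensity these bounds were smaller, with 2.04 in place of 3.64 on the log2 scale against MSCs and -2.47 in place of -3.64 for MFH1NR against COS1NR. S100a9, its partner in calprotectin, read 4.17 in MSCs, 7.02 in COS1NR and 7.06 in MFH1NR, not well above background on any array, so of the pair 1 subunit was measured above background. Among the neutrophil markers listed, 5 of 11 with a probe were well above background in MSCs, against 4 in COS1NR and 2 in MFH1NR, at summed scaled levels of 1.15, 11.9 and 0.307. Lcn2, which encodes the iron carrier lipocalin 2, made up most of the sum in COS1NR, with an intensity of 8659 there against 33.9 in MSCs and 23.1 in MFH1NR. Csf3r, the receptor of the neutrophil growth factor G-CSF, was well above background in COS1NR alone at 132. Prtn3, a granule protease gene, was well above background on all 3 arrays at 39.8 in MSCs, 125 in COS1NR and 139 in MFH1NR. Camp, the cathelicidin gene, was so at 159.6 in MSCs and 219 in COS1NR, Ngp in MFH1NR alone at 63.4, and Fcnb and Itgam in MSCs alone. The granule genes Elane, Mmp8 and Ctsg and the receptor gene Cxcr2 were not well above background on any array, and the part of these markers in the S100a8 level was not tested.

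S100b was read by 10 spots of 1 probe, which gives the spread within an array. After outlier spots were removed the spots had median intensities at 5.17 in MSCs, 6.76 in COS1NR and 6.61 in MFH1NR. The ranges were 3.95 to 28.2, 5.96 to 29.5 and 6.04 to 11.2. In MSCs 1 of 9 spots was well above background, and no spot was so in the tumor lines. S100b was therefore not detectable in any of the 3 cell types at this sensitivity. Glial markers were low too, with Gfap not well above background on any array and Sox10 between 38.6 and 111.

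Annexin levels were highest in MSCs for Anxa1, Anxa2 and Anxa5. Anxa1 encodes the glucocorticoid-induced annexin that acts through formyl peptide receptors, and it read 79684 in MSCs, 66277 in COS1NR and 70131 in MFH1NR. The log2 ratio to MSCs was -0.66 in COS1NR and -0.94 in MFH1NR, both within 2-fold. The second probe read 64857 in MSCs, 41311 in COS1NR and 43909 in MFH1NR, giving log2 ratios of -1.04 and -1.32, so that the probes fell on opposite sides of the 2-fold limit. The tumor lines differed from each other in Anxa1 by a log2 ratio of -0.28, whose sign turned with no scaling (0.08), quantile normalization (0.08) and spike-in scaling (0.51).

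Anxa2, the membrane anchor of S100A10, read 90578 in MSCs, 74923 in COS1NR and 43979.7 in MFH1NR. The log2 ratio was -0.67 for COS1NR to MSCs, -1.80 for MFH1NR to MSCs and -1.13 for MFH1NR to COS1NR. MFH1NR was thus lowest, and its ratio to MSCs was past 2-fold under every scaling and background correction tried, from -1.89 to -1.04. The ratio to COS1NR was within 2-fold with no scaling, quantile normalization and spike-in scaling, at -0.77, -0.85 and -0.34. The gene table lists 8 pseudogenes of Anxa2 and 1 of S100a10, and whether their probes also match such copies was not tested.

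Anxa5, which encodes the phosphatidylserine-binding annexin of matrix vesicles, read 28151 in MSCs, 21479 in COS1NR and 17620 in MFH1NR. Its log2 ratio to MSCs was -0.78 in COS1NR and -1.43 in MFH1NR, and the latter was within 2-fold with no scaling (-0.68) and spike-in scaling (-0.91). The second probe read 12792, 13159 and 10951 in the same order, with log2 ratios to MSCs of -0.35 and -0.98. Both probes put MSCs highest relative to the percentile and MFH1NR lowest, but the second left MFH1NR just within 2-fold of MSCs. Between the tumor lines the log2 ratio was -0.65, and 0.14 with spike-in scaling.

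Anxa3, an annexin known from neutrophil granules, ran the other way. Its brightest probe read 691 in MSCs, 880 in COS1NR and 3696 in MFH1NR, giving a log2 ratio of MFH1NR of 1.66 to MSCs and 1.71 to COS1NR. A second probe read 203, 234 and 1031 in the same order, with log2 ratios of 1.59 and 1.78. The third probe disagreed, at 99.8 in MSCs, 39.0 in COS1NR and 61.7 in MFH1NR, where MSCs were highest and the log2 ratio to MSCs was -1.75 in COS1NR and -1.45 in MFH1NR. COS1NR and MSCs did not differ in the brightest probe beyond the spread between probes, with a log2 ratio of -0.04 whose sign turned with no scaling (0.35) and median scaling (0.12). The probe sequences are not used here, so which transcripts each probe reads was not determined.

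**Figure D2:**
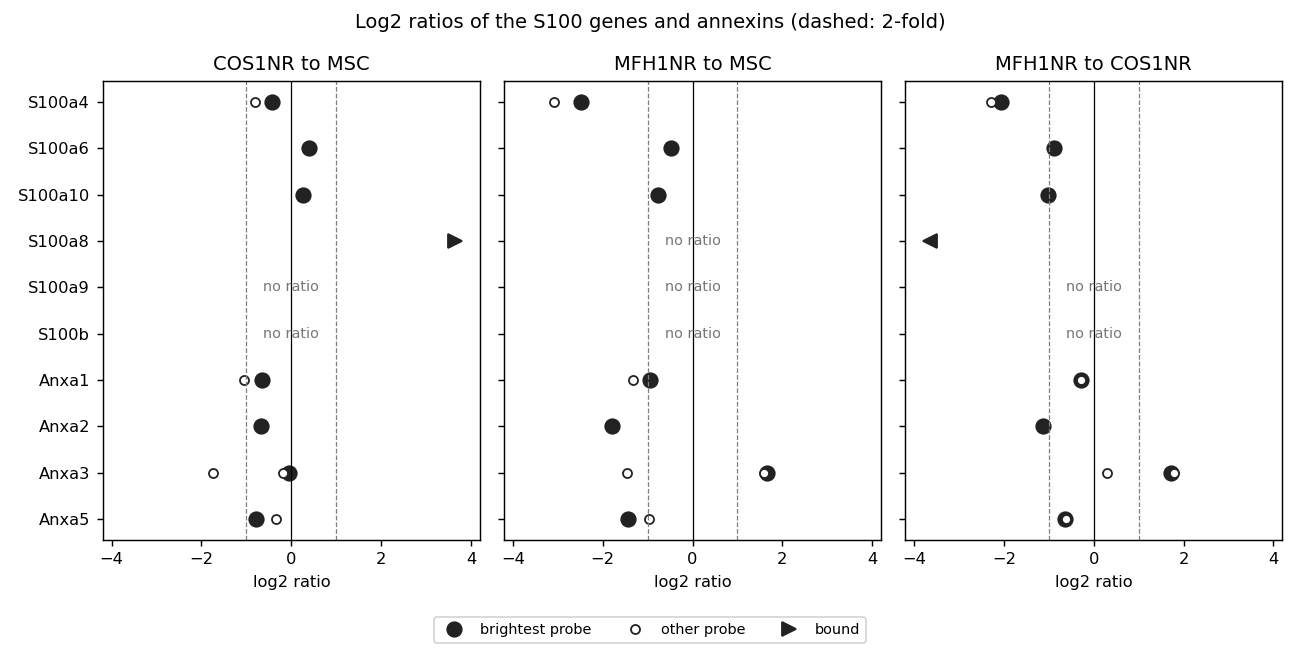
Log2 ratios (x axis) of each gene (y axis) in the 3 comparisons, with filled points for the brightest probe, open points for other probes, triangles for bounds and dashed lines at 2-fold. In MFH1NR against MSCs, the brightest probes of S100a4, Anxa2 and Anxa5 lie past the lower line and that of Anxa3 past the upper one. Of the other probes, 1 of the 3 Anxa3 probes and the second Anxa1 probe (-1.32) lie past the lower line. The second Anxa5 probe (-0.98) lies inside it. The brightest Anxa5 probe moves inside the line with no scaling and with spike-in scaling.

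Counted over the members, 7 of 8 with a ratio were within 2-fold of MSCs in COS1NR, and 3 of 7 were in MFH1NR. In COS1NR against MSCs, 1 of 8 members with a ratio was at least 2-fold higher (S100a8), against 20.7% of all 9709 genes compared, and 0 were lower, against 20.0%. The median log2 ratio of the members was -0.23 and that of all genes 0.10. In MFH1NR against MSCs, 1 of 7 was higher (Anxa3), against 19.4% of 9822 genes, and 3 were lower (S100a4, Anxa2 and Anxa5), against 21.6%. The median was -0.94 over the members and 0.02 over all genes. In MFH1NR against COS1NR, which were on the same slide, 1 of 8 was higher (Anxa3), against 12.4% of 9422 genes, and 4 were lower (S100a4, S100a8, S100a10 and Anxa2), against 15.1%. Here the median was -0.96 over the members and -0.08 over all genes. On the brightest probes 0 members were at least 2-fold different from MSCs in the same direction in both tumor lines, against 11.3% of 9522 genes higher and 13.6% lower, while the second Anxa1 probe and the third Anxa3 probe were lower in both.

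Taken by family, the median log2 ratio to MSCs was 0.33 over the 4 S100 members with a ratio in COS1NR, S100a8 with its bound among them, and -0.77 over the 3 in MFH1NR. The latter is the value of S100a10, which was -0.02 with no scaling. Over the 4 annexins the medians were -0.66 and -1.19. Replicate spots of the same probe gave a ratio an SD of 0.07 to 0.08 on the log2 scale, which covers neither cultures nor labeling. Probes of the same gene differed by more, with a median difference of 0.28, 0.31 and 0.15 in the log2 ratios of COS1NR to MSCs, MFH1NR to MSCs and MFH1NR to COS1NR, over 1895 genes. The gaps between neighbors in the order of levels of the 7 bright members were wider than these medians on the brightest probes, except between COS1NR and MSCs for S100a10 and for Anxa3.

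Scaling set how many members passed the threshold between the tumor lines. Scaling by the spike-in probes, designed to read control RNA added before labeling, moved the median of all genes to 0.70 in MFH1NR against COS1NR and to 0.53 in MFH1NR against MSCs. Such scaling, like none and median scaling, added the same amount to the log2 ratio or bound of every member within a comparison. With spike-in scaling 34.9% of genes were higher and 7.11% lower in MFH1NR against COS1NR, and the members lower by 2-fold were 2 in place of 4, namely S100a4 at -1.27 and S100a8 with a bound of -2.85.

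**Figure D3:**
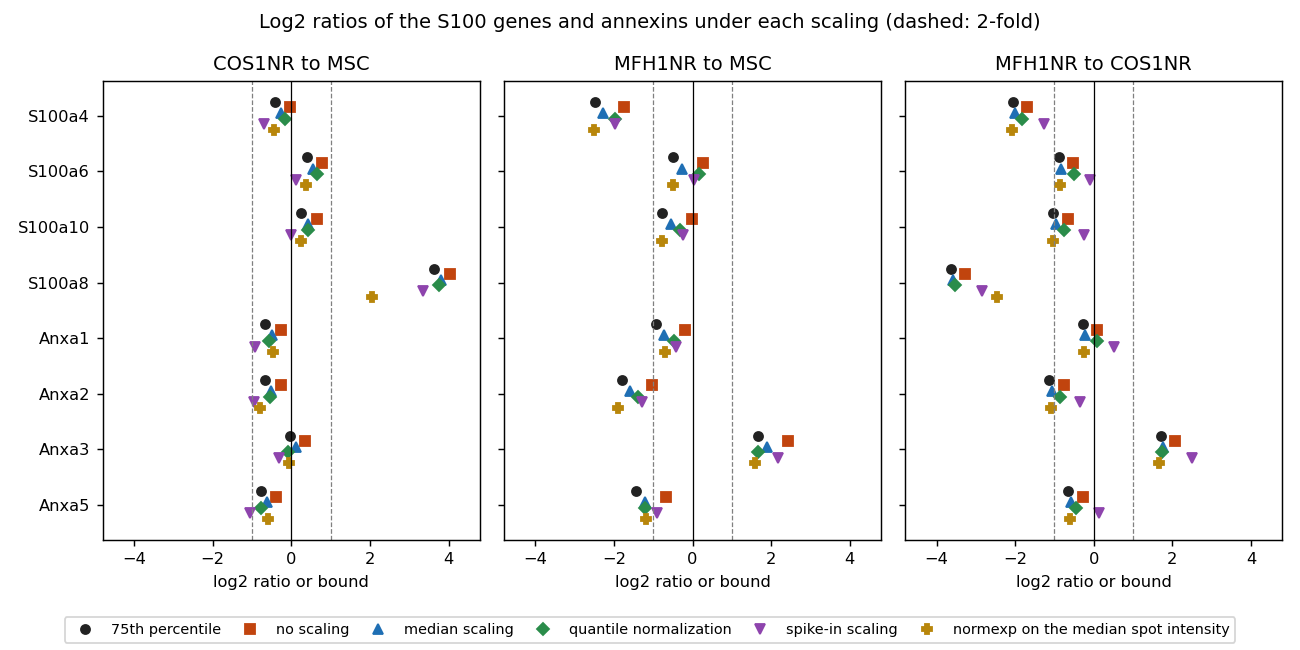
Log2 ratios or bounds (x axis) of the 8 members with a ratio (y axis) in the 3 comparisons under 6 ways of scaling or background correction, with dashed lines at 2-fold. S100a4 in MFH1NR and S100a8 in COS1NR lie past a line under each of them, while S100a6 in MFH1NR against MSCs and Anxa1 in MFH1NR against COS1NR cross 0.

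Some other genes of the S100 family differed widely between the cell types. Of 10 other S100 genes listed 5 had a probe, and S100g, an intestinal calcium carrier, was not well above background on any array. S100a16 read 6788 in MSCs, 153 in COS1NR and 294 in MFH1NR, 58.3-fold lower in COS1NR and 39.0-fold lower in MFH1NR than in MSCs. S100a3, known from hair cuticle, read 193 in MSCs, 1021 in COS1NR and 85.2 in MFH1NR, giving log2 ratios to MSCs of 2.01 and -1.94. These genes thus split, with S100a16 low in both tumor lines and S100a3 highest in COS1NR and lowest in MFH1NR. S100a5 read 44.8 in MSCs and 261 in COS1NR and was not well above background in MFH1NR at 18.8, so that its level there was lower than in MSCs by 2.51-fold or more and lower than in COS1NR by 11.1-fold or more. S100a1, the S100 protein of heart and skeletal muscle, read 282 in MSCs, 1071 in COS1NR and 797 in MFH1NR, giving log2 ratios to MSCs of 1.53 and 0.74, the latter past 2-fold with no scaling and with spike-in scaling (1.26).

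Members and these other genes were counted together, which gives 11 S100 genes with a probe. In MFH1NR against COS1NR, 5 of 8 with a ratio were at least 2-fold lower (S100a3, S100a4, S100a5, S100a8 and S100a10), against 15.1% of all genes, and 0 were higher, against 12.4%, and 4 stayed lower without S100a10 under the other scalings, where spike-in scaling put S100a16 higher. In COS1NR against MSCs 4 of 8 were higher (S100a1, S100a3, S100a5 and S100a8), against 20.7% of all genes, and 1 was lower (S100a16), against 20.0%. In MFH1NR against MSCs 0 of 7 were higher, against 19.4%, and 4 were lower (S100a3, S100a4, S100a5 and S100a16), against 21.6%. With no scaling and with spike-in scaling, S100a1 was higher there and S100a5 was no longer lower.

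Most S100 genes lie together, and in COS1NR against MSCs S100a4 differed from the measured genes beside it. On GRCr8 the genes from Chtop to Pglyrp3-ps1 on chromosome 2 include 14 S100 genes among 23, of which 10 had a named probe. S100a4 lies between the S100a2 pseudogene and S100a5, S100a6 follows S100a5, and S100a8 and S100a9 follow S100a7a. S100a10 is apart, next after S100a11 and Cks1l-ps1, with 77 genes between S100vp and S100a11. S100a3 and S100a5 on both sides of S100a4 were higher in COS1NR than in MSCs by log2 ratios of 2.01 and 2.15, while S100a4 was at -0.43. In MFH1NR all 3 were lower than in MSCs, at -1.94 for S100a3, a bound of -1.33 for S100a5 and -2.49 for S100a4, and lower than in COS1NR, at -3.95, a bound of -3.48 and -2.06. S100a7a and S100vp were not well above background on any array, and Chtop at the edge of the cluster had a log2 ratio of 0.55 in COS1NR. The gene table places Anxa5 on chromosome 2 as well, S100b on 20, Anxa1 on 1, Anxa2 on 8 and Anxa3 on 14.

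**Figure D4:**
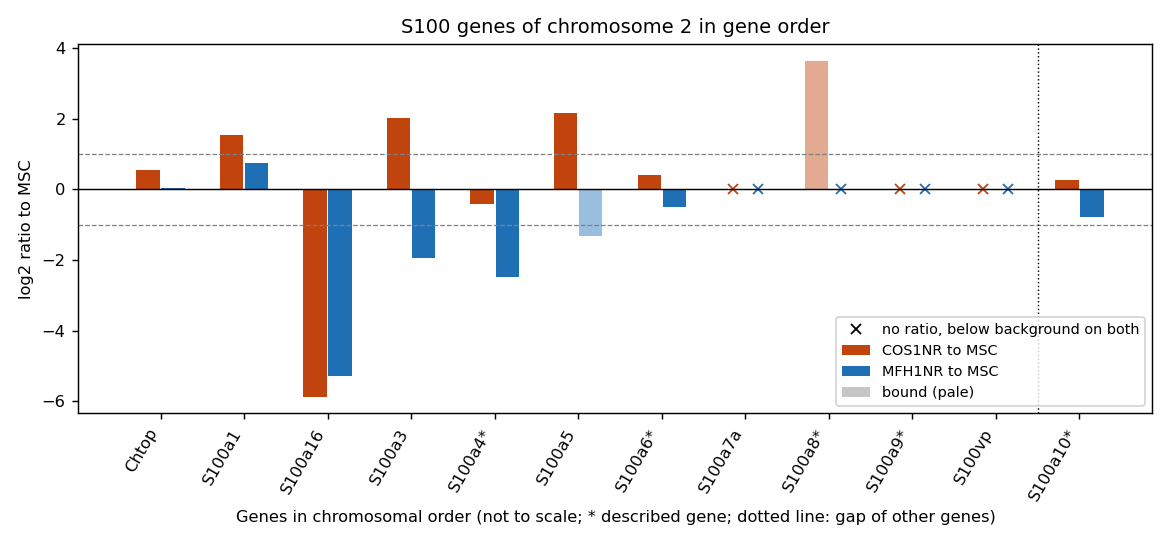
Log2 ratio to MSCs (y axis) of the chromosome 2 S100 genes with a probe and of Chtop, in gene order and not to scale (x axis), with bars for COS1NR and MFH1NR, pale bars for bounds and crosses where both arrays were near background. S100a3, S100a5 and S100a6 are above 0 in COS1NR and below 0 in MFH1NR, with the S100a6 value of MFH1NR turning positive with no scaling, quantile normalization and spike-in scaling, and S100a16 is far below 0 in both.

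Of 8 other annexins listed 7 had a probe, and Anxa10 and Anxa13 were not well above background on any array. Anxa6, a large annexin of endocytic membranes, read 13676 in MSCs, 5172 in COS1NR and 17660.4 in MFH1NR. It was 3.47-fold lower in COS1NR than in MSCs, while MFH1NR was within 2-fold of MSCs at a log2 ratio of -0.39, which turned to 0.37 with no scaling and 0.13 with spike-in scaling. Its second probe gave -1.63 and -0.27. Anxa8 read 93.9 in MSCs and was not well above background in either tumor line, so its log2 ratios were bounds, -2.07 in COS1NR and -2.40 in MFH1NR. Anxa4, Anxa7 and Anxa11 had log2 ratios between -0.58 and 0.11 in both comparisons with MSCs. Between the tumor lines, 1 of 8 annexins with a ratio, Anxa2, was at least 2-fold lower in MFH1NR, against 15.1% of all genes, and Anxa3 and Anxa6 were at least 2-fold higher, against 12.4%.

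Genes whose pattern was most like that of a member were sought among 7930 genes, by the distance between their log2 levels on the 3 arrays after centering. S100a4, with a range of 2.49 over the arrays, was nearest to Tmem53, the glucose transporter gene Slc2a1 and the haptoglobin gene Hp, at distances of 0.08, 0.13 and 0.15. Anxa2, with a range of 1.80, was nearest to Tsen34, Nab1 and Spns1, at 0.03, 0.05 and 0.07. With 3 arrays such likeness is common: 13 genes lay within 0.25 of S100a4 and 60 within 0.25 of Anxa2.

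Genes of the plasminogen system were low in both tumor lines. The complex of S100A10 and annexin A2 binds plasminogen and its activator at the cell surface. Plau, which encodes urokinase, read 10699.9 in MSCs, 16.7 in COS1NR and 62.1 in MFH1NR, at least 478-fold lower in COS1NR and 291-fold lower in MFH1NR. Plaur, its receptor gene, read 15446 in MSCs, 760.5 in COS1NR and 897 in MFH1NR, giving log2 ratios of -4.74 and -4.86. The urokinase pair was thus low in both lines. Plat, which encodes tissue plasminogen activator, read 806, 59.5 and 370.1 in the same order, with log2 ratios of -4.15 and -1.88. Serpine2, which encodes the protease inhibitor nexin-1, read 3865 in MSCs and 1929.9 in COS1NR and was not well above background in MFH1NR, a drop from MSCs of at least 217-fold. Plg, the gene of plasminogen, was not well above background on any array.

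In the whole list of 14, 8 of 13 genes with a probe had a ratio. In each tumor line 6 of the 8 were at least 2-fold lower than in MSCs, and the median was -1.30 for COS1NR and -1.51 for MFH1NR, beside 20.0% and 21.6% of all genes and all-gene medians of 0.10 and 0.02. The 6 were the 4 above, the lysosomal protease gene Ctsb and Dlc1, and all 6 were low in both lines, against 13.6% of genes. Ctsb, at log2 ratios of -1.07 and -1.15, was within 2-fold in MFH1NR with each of the other scalings, as was Dlc1, at -1.21 and -1.01, except with quantile normalization. In COS1NR Ctsb was within 2-fold with no scaling (-0.67), median scaling (-0.91), quantile normalization (-0.73) and normexp (-0.96), and Dlc1 with no scaling (-0.81). In MFH1NR normexp put Ctsb at -0.96 and Dlc1 at -0.91. Asic1, a proton-gated channel gene, was higher in both lines on its brightest probe, at 1.40 and 1.15, and within 2-fold with normexp background correction. Its other 2 probes were well above background in MFH1NR alone, at 89.1 and 68.2, and with the mean of all probes the log2 ratio in COS1NR was 0.64. Cav1, the coat protein gene of caveolae, was 3.09-fold higher in COS1NR. All 15 macrophage markers were at least 2-fold lower in both lines on the brightest probes. Of these, Cd163 had bounds of -1.36 and -1.68, and its second probe bounds of -0.02 and -0.34. The summed scaled level of 7 fibroblast markers came to 909 in MSCs, mostly Col3a1 at 509, 19.6 in COS1NR and 167 in MFH1NR. All 7 were at least 2-fold lower in COS1NR and 4 in MFH1NR. There Pdgfra (-0.27), Fap (-0.60) and Col1a2 (-0.98) were within 2-fold on the brightest probe, while the second Col1a2 probe was at -4.56. The part of the macrophage and fibroblast markers in this list was not tested.

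**Figure D5:**
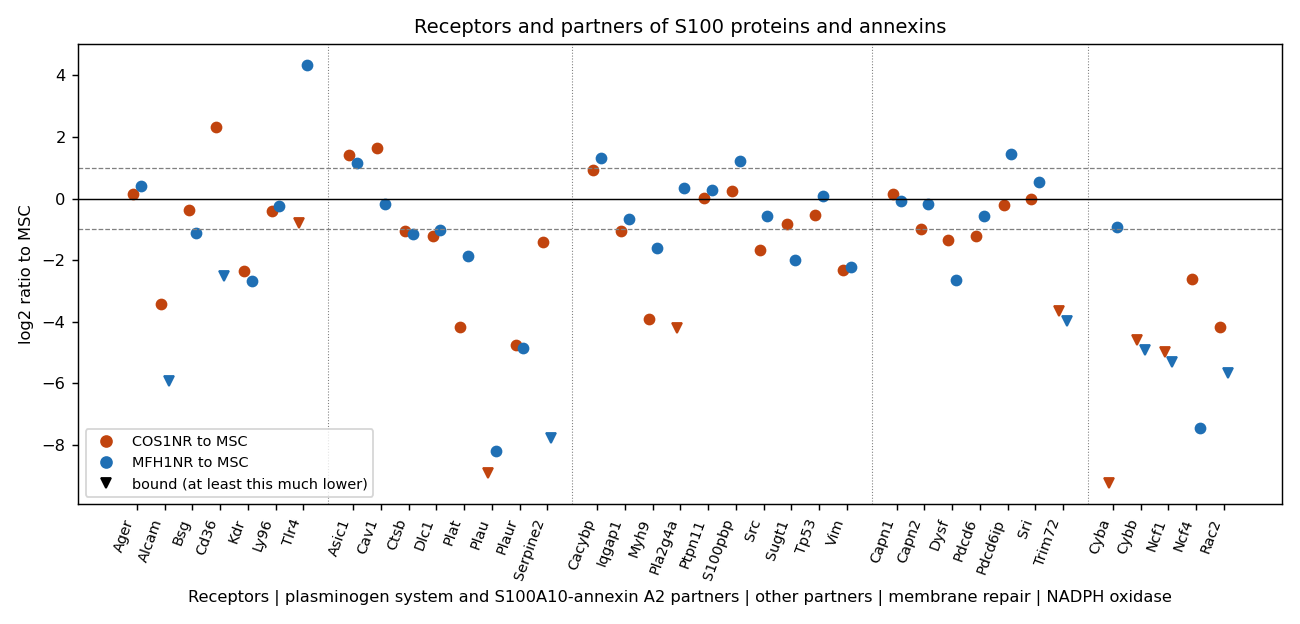
Log2 ratio to MSCs (y axis) of the receptors and partners of S100 proteins and annexins that had a ratio (x axis, in 5 groups), for COS1NR and MFH1NR, with triangles for bounds and dashed lines at 2-fold. Plau, Plaur, Plat and Serpine2 lie below the lower line in both tumor lines, and Tlr4 and Cd36 lie on opposite sides of 0 in the tumor lines.

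Receptors of secreted S100 proteins varied by gene. Tlr4, a receptor for S100A8 and S100A9, read 38.9 in MSCs and 1323 in MFH1NR and was not well above background in COS1NR at 6.21. It was 20.2-fold higher in MFH1NR than in MSCs and exceeded by at least 35.0-fold its level in COS1NR, the line with the S100a8 signal. Across the settings tried, the log2 ratio or bound of Tlr4 in MFH1NR was between 3.07 and 5.09 to MSCs. To COS1NR it was between 4.02 and 7.37. Cd36, a scavenger receptor gene, read 103 in MSCs and 665 in COS1NR and was not well above background in MFH1NR, so that relative to MSCs it was up 4.94-fold in COS1NR and down by at least 5.75-fold in MFH1NR. These genes were thus at opposite ends in the tumor lines. Ager, which encodes the RAGE receptor of several S100 proteins, had log2 ratios of 0.14 and 0.41, within 2-fold, and with no scaling the latter was 1.16. Alcam, the gene of an adhesion molecule that binds S100B, read 1090 in MSCs and 134 in COS1NR and was not well above background in MFH1NR, giving a log2 ratio of -3.42 in COS1NR and a bound of -5.93 in MFH1NR. Its second probe was low in both lines too, at -3.69 and a bound of -5.13. Kdr, a VEGF receptor gene also used as an endothelial marker, was likewise low in both lines at -2.35 and -2.68. Of 7 receptors with a ratio 1 was higher and 2 were lower in COS1NR, with a median of -0.40, and 1 was higher and 4 were lower in MFH1NR, with a median of -1.11. Over all genes 20.7% were higher and 20.0% lower in COS1NR, around a median of 0.10, and 19.4% and 21.6% in MFH1NR, around 0.02. With no, median, quantile or spike-in scaling 3 receptors in place of 4 were lower in MFH1NR. Fpr1, a formyl peptide receptor gene, was not well above background on any array. Of 5 markers of fat cells with a probe, 4 were well above background in MSCs, against 4 in COS1NR and 0 in MFH1NR. Like Cd36, the 4 genes Pparg, Fabp4, Lpl and Cidec were at least 2-fold higher in COS1NR than in MSCs. Adipoq was not, at 32.6 in MSCs and not well above background in COS1NR at 13.2. The summed scaled levels of the 5 markers were 1.66, 38.3 and 0.0579, mostly Fabp4 in COS1NR at 28.2, and their part was not tested.

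Intracellular partners varied by gene. Myh9, the nonmuscle myosin IIA heavy chain gene and the target of S100A4, read 2740 in MSCs, 239 in COS1NR and 1529 in MFH1NR, giving log2 ratios of -3.91 and -1.60. It was lowest in COS1NR, where S100a4 was near its level in MSCs, and with no scaling it was within 2-fold of MSCs in MFH1NR (-0.84). Vim, the gene of the intermediate filament vimentin, read 209445 in MSCs, 54619 in COS1NR and 75552 in MFH1NR, giving log2 ratios of -2.33 and -2.23. Pla2g4a, the cytosolic phospholipase inhibited by annexins, read 407 in MSCs and 879 in MFH1NR and was not well above background in COS1NR, a drop from MSCs of at least 18.2-fold. Cacybp, the calcyclin-binding protein gene, was higher in both lines at log2 ratios of 0.94 and 1.30, past 2-fold in MFH1NR. Sugt1, a cochaperone gene whose product binds S100A6, was at -0.84 in COS1NR and 4.01-fold lower in MFH1NR than in MSCs, while its second probe gave log2 ratios of -0.22 and -1.26. Of 10 partners with a ratio 0 were higher and 5 lower in COS1NR, beside 20.7% and 20.0% of all genes, with a median of -0.94, and 2 were higher and 3 lower in MFH1NR, beside 19.4% and 21.6%, with a median of -0.24. With no scaling 4 were higher and 2 lower in MFH1NR, and 1 was higher (Cacybp, 1.33) and 4 were lower in COS1NR, where Iqgap1 was at -0.65 in place of -1.05.

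Of 7 genes of membrane repair, a process in which annexins seal torn plasma membranes, 0 were higher and 4 lower in COS1NR, beside 20.7% and 20.0% of all genes, and 1 was higher and 2 lower in MFH1NR, beside 19.4% and 21.6%, with medians of -1.0 and -0.19. With no scaling only Trim72 of the 4 was lower in COS1NR, since Dysf was at -0.97, Pdcd6 at -0.84 and Capn2 at -0.61. Dysf, the dysferlin gene, read 4437 in MSCs, 2271 in COS1NR and 1198 in MFH1NR, giving log2 ratios of -1.36 and -2.64. Trim72, the gene of the repair protein MG53, read 278 in MSCs and was not well above background in either tumor line, at least 12.4-fold lower in COS1NR and 15.6-fold lower in MFH1NR. Dysf and Trim72 were low in both lines, Dysf not past 2-fold in COS1NR with no scaling. The gene called higher in MFH1NR was Pdcd6ip, the ALIX gene, and that call rests on 1 of its 5 probes. The brightest probe was at a log2 ratio of 1.43 in MFH1NR against MSCs, while the other 4 were at -0.69, -0.97, 0.34 and 0.18, all within 2-fold. In COS1NR 3 of those 4 were at least 2-fold lower, at -1.43, -1.23 and -1.34, and the brightest was at -0.21.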

How the data were processed

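RNA of MSCs, COS1NR and MFH1NR was hybridized to 1-color whole rat genome arrays, 1 array per cell type. The authors deposited processed intensities of each spot on a linear scale, made per the file headers with Agilent Feature Extraction 10.5.1.1 (the labels name version 9.1), which subtracted and detrended the background and did not scale between arrays. The labels and the study's methods name different RNA and labeling kits. The array was designed on an earlier genome build, and names came from the GRCr8 RefSeq table, which matched 16745 of 19898 probes with a RefSeq accession.

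Control spots and 187 to 217 outlier spots per array were left out, spots of a probe were averaged as log2 intensity, and each array's 75th percentile was subtracted. The brightest probe stood for a gene, and a probe was well above background if over 50% of its spots were. A ratio was called at 2-fold, with bounds for probes dim on 1 array. No test was possible with 1 array per group, and the number of arrays limits the precision. The procedure was tested on simulated data. All member probes were named, and genes of other lists were chosen for description by a 2-fold difference in the same direction in both tumor lines or by size; receptors and partners named beyond these were chosen after their values were seen. The members and lists were chosen with earlier results of these data known. A gene of 1 list is not reported here and was left out of its counts. Python 3.11.15, pandas 2.3.3, R 4.3.3 and limma 3.58.1 were used. Alternatives were other scalings, background corrections, probe rules, filters and thresholds. The files hold no mean spot intensity, so normexp (offset 50) was run on the median spot intensity, an alternative chosen after seeing the data.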

Additional observations from a re-analysis of the deposited data

Results flagged for a closer look

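The tumor lines lay on opposite sides of MSCs in log2 ratio for several genes, which was not tested since each cell type had 1 array. Those given here are S100 and annexin genes where both ratios exceeded 2 SDs of replicate spots, and genes of the pathway lists where both were at least 2-fold. Genes outside these limits did so too, such as Tlr4, with a bound of -0.80 in COS1NR and a ratio of 4.33 in MFH1NR, and the fat cell marker Fabp4, at 5.76 and a bound of -4.11. S100a6 was at 0.40 in COS1NR and -0.49 in MFH1NR, and S100a10 was at 0.26 and -0.77, all within 2-fold. Their signs depended on the scaling: S100a6 in MFH1NR turned positive with no scaling, quantile normalization and spike-in scaling, and S100a10 in COS1NR was -0.02 with spike-in scaling. S100a3 was at 2.01 in COS1NR and -1.94 in MFH1NR, and S100a5 at 2.15 and -1.33, where the latter is a bound. Cd36 was at 2.30 in COS1NR and -2.52 in MFH1NR, also a bound in MFH1NR.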

How the results depend on the processing

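Of 23 log2 ratios of members, 23 kept their side of the 2-fold limit with the series table, normexp, outlier spots kept, no bound, no filter or a common floor, 20 with no scaling, 22 with median scaling, 21 with quantile normalization, 19 with spike-in scaling, 21 with the mean of all probes and 20 with the second probe, as did 21 of 21 well above background on both arrays. In COS1NR to MSCs, the count of members at least 2-fold higher was 0 in place of 1 when only probes well above background on both arrays were kept, since S100a8 was then left out, and the count lower was 1 in place of 0 with spike-in scaling (Anxa5) and with the second probe (Anxa1). In MFH1NR to MSCs, 0 members were higher with the mean of all probes, where Anxa3 was at 0.60. In MFH1NR to COS1NR, the count lower was 2 in place of 4 with no scaling, quantile normalization, spike-in scaling and a 3-fold threshold. The log2 ratio of Pdcd6ip, MFH1NR to MSC, reversed from 1.43 to -0.69 with the second probe. With no scaling the share of all genes higher and lower was 32.5% and 14.8% in COS1NR to MSCs and 41.4% and 12.96% in MFH1NR to MSCs, around medians of 0.49 and 0.77, and with spike-in scaling it was 33.6% and 15.0% in MFH1NR to MSCs and 34.9% and 7.11% in MFH1NR to COS1NR. Across all settings S100a4 in MFH1NR to MSCs stayed between -3.09 and -1.73, S100a8 in COS1NR to MSCs between 2.04, with normexp, and 4.64, with no bound, and S100a8 in MFH1NR to COS1NR between -2.47 and -5.91 with the same settings. Bounds of list genes against MSCs shrank under some settings too. Their smallest log2 values were, for example, -7.17 for Plau and -2.93 for Pla2g4a in COS1NR and -4.86 for Serpine2 in MFH1NR. Those of Trim72 were -2.47 in COS1NR and -2.61 in MFH1NR. Normexp on the mean spot intensity was not run, because that column is not in the files used here. Leaving out a replicate was not possible with 1 array per group. No paired analysis was possible because each group had 1 array and the groups share fewer than 2 replicate numbers.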

Other observations

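Genes of the NADPH oxidase, whose cytosolic factors S100A8 and S100A9 are known to engage in phagocytes, were high in MSCs. Of 5 with a probe 5 were at least 2-fold lower in COS1NR and 4 in MFH1NR, against 20.0% and 21.6% of all genes, with median log2 ratios of -4.60 and -5.31, beside 0.10 and 0.02 over all genes. Cybb, the catalytic subunit gene, read 541.5 in MSCs and was not well above background in either tumor line, at least 24.2-fold lower in COS1NR and 30.4-fold lower in MFH1NR. Ncf1 was at least 31.6-fold and 39.7-fold lower in the same lines. The smallest drops across the settings tried, on the log2 scale, were -3.26 and -3.46 for Cybb and -3.63 and -3.72 for Ncf1. Ncf4, a cytosolic factor gene, was at log2 ratios of -2.60 and -7.44, and Rac2, the gene of a small GTPase of blood cells, was at -4.15 in COS1NR with a bound of -5.67 in MFH1NR. Cyba, the gene of the smaller membrane subunit, read 13537 in MSCs and 12148 in MFH1NR and was not well above background in COS1NR at 6.16. It was at least 605-fold lower in COS1NR than in MSCs, with a log2 ratio of -0.91 in MFH1NR. Across the settings tried, the Cyba value in COS1NR was between -11.5 and -8.02 on the log2 scale. Macrophage markers were low in both tumor lines too, with 15 of 15 at least 2-fold lower on the brightest probes. The second Cd163 probe had bounds of -0.02 in COS1NR and -0.34 in MFH1NR. The part of these markers was not tested.

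Of 5 osteoclast markers with a probe, 4 were well above background in MSCs, against 3 in COS1NR and 3 in MFH1NR. Their summed scaled level was 71.7 in MSCs, mostly Acp5 (41.7) and Ctsk (25.1), against 2.66 in COS1NR and 7.43 in MFH1NR. Mmp9 read 2730 in MSCs, 1892 in COS1NR, within 2-fold, and 102 in MFH1NR. Calcr was not well above background on any array. Ctsk, the collagen-degrading cathepsin gene, read 14774 in MSCs, 47.0 in COS1NR and 7209 in MFH1NR.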
